A study of Homo sapiens with 12 samples.

Results

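The events described here are tandem 3' splice sites, pairs of splice acceptors that lie exactly 3 bases apart at the start of the same exon. They were taken from 2 splicing tables deposited for HEK293T, an established cell line from human embryonic kidney, as alternative 3' splice site events with 3 bases between both acceptors and a value in all columns. The table made with the program MISO held 118 such events, of 1179 alternative 3' splice sites and 10358 events of all kinds with all values. They covered 116 acceptor pairs and 115 gene symbols. The table made with rMATS held 806, of 5687 and 60623, over 730 acceptor pairs and 674 gene symbols. Events with the same donor and the same acceptors in both tables numbered 55.

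All cells carried a stable lentiviral hairpin. The groups were a scramble hairpin (1 library), hairpins against PRMT1, PRMT3, PRMT4, PRMT5 and PRMT7 (2 libraries each, 1 per hairpin) and a hairpin against PRMT6 (1 library), 12 libraries of poly(A) RNA in all. The study asked how these protein arginine methyltransferases, enzymes that methylate arginine in many RNA-binding proteins, bear on splicing. Both tables give 1 column per target, so each PSI or difference is 1 deposited value without replicates, and neither an SD nor a test can be given. Read depth is unknown, and transcript levels of the targets and of marker genes of the cell line were not analysed here.

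At the end of an intron the spliceosome recognises the branch point, a pyrimidine tract and a terminal AG. The proteins SF1 and U2AF make the first contacts, and the second catalytic step of splicing selects the AG that is joined to the upstream exon. Where a second AG follows a few bases on, as in the motif NAGNAG, either can be used, and a pair 3 bases apart adds or removes 1 codon without shifting the reading frame. The base before each AG matters: C and T are favoured, A less so, and G is disfavoured. Percent spliced in (PSI) runs from 0 to 1. By the usual convention of both programs the inclusive form is the longer exon, which starts at the proximal acceptor, the one nearer to the upstream exon. The tables do not state this, and PSI is read that way throughout. In bulk RNA a PSI in the middle of the scale can come from cells that use both acceptors or from a mixture of cells, and fewer cells with a form and less of that form per cell cannot be told apart.

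The 3 bases between the acceptors were read from the reference transcripts for 110 of the 118 MISO members, by gene symbol, strand and intron length, and all 110 ended in AG. The first of the 3 was C in 70, A in 19, T in 16 and G in 5. A pair of members of the last kind, which were joined almost always at the proximal acceptor, are shown first. Each line gives the last 24 bases of the upstream exon, the 3 bases between the acceptors in capitals, and the next 24 bases of the exon, 5′ to 3′ on the transcript strand. Positions are the first exon base at each acceptor on build GRCh37, as the tables give them, and the letters are those of GENCODE 29 transcripts. The bases in capitals are in the mRNA only when the proximal acceptor is used.

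CHD4 (chr12:6692541-6692544, minus strand): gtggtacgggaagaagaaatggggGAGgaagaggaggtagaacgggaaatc
LEMD2 (chr6:33740552-33740555, minus strand): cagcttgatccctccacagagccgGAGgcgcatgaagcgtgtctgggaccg

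The next set shows coding members whose PSI differed most between columns or that differed in several knockdowns. They are ordered by the role of the gene, with RNA-binding and splicing factors first, then chromatin and transcription, then centrosome, cilium and microtubule, then others.

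ATXN2L (chr16:28846867-28846870, plus strand): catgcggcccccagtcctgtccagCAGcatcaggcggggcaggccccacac
PTBP2 (chr1:97278829-97278832, plus strand): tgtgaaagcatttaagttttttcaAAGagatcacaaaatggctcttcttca
CLK2 (chr1:155239504-155239507, minus strand): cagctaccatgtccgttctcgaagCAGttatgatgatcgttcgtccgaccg
CHD9 (chr16:53340146-53340149, plus strand): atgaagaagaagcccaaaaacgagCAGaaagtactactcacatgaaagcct
BRPF1 (chr3:9785262-9785265, plus strand): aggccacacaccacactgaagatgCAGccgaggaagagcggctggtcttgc
BAHD1 (chr15:40754111-40754114, plus strand): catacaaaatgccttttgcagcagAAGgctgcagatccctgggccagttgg
SMARCA4 (chr19:11168931-11168934, plus strand): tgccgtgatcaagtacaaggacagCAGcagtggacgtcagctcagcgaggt
CIC (chr19:42797108-42797111, plus strand): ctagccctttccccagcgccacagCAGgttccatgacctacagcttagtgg
STIL (chr1:47728785-47728788, minus strand): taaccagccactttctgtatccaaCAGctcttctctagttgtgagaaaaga
FBF1 (chr17:73919719-73919722, minus strand): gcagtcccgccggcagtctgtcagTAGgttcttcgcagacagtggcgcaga
MAP9 (chr4:156289961-156289964, minus strand): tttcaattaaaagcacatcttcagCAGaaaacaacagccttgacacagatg
WDR47 (chr1:109547337-109547340, minus strand): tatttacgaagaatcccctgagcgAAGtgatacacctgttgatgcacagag
ZNF747 (chr16:30544469-30544472, minus strand): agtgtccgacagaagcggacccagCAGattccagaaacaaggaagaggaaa
C11orf68 (chr11:65685686-65685689, minus strand): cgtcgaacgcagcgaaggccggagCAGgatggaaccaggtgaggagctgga

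In 59 of the 118 members (50%) the scramble PSI lay from 0.2 to 0.8, so that both acceptors were used to a large extent. At every distance other than 3 bases, 170 of 1061 alternative 3' splice sites (16%) lay in that range. Among the 109 pairs that were 4 to 12 bases apart it was 14 (12.8%), and 57 of the 109 (52.3%) lay above 0.95, against 13 members (11%). The median PSI of the members in scramble was 0.73, with quartiles at 0.42 and 0.9, and in the knockdown columns the median ran from 0.695 in PRMT3 to 0.745 in PRMT6. With the lower quartile at 0.42, the distal acceptor was the more used of both in many members. In 7 members the scramble PSI lay from 0.05 to under 0.2. The distal acceptor was used almost alone in few: 4 members were under 0.05 in scramble. These were SMG1 at 0.01, TNKS1BP1 at 0.02, and CEP170B and SCO1 at 0.03, named after their values were seen.

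**Figure D1:**
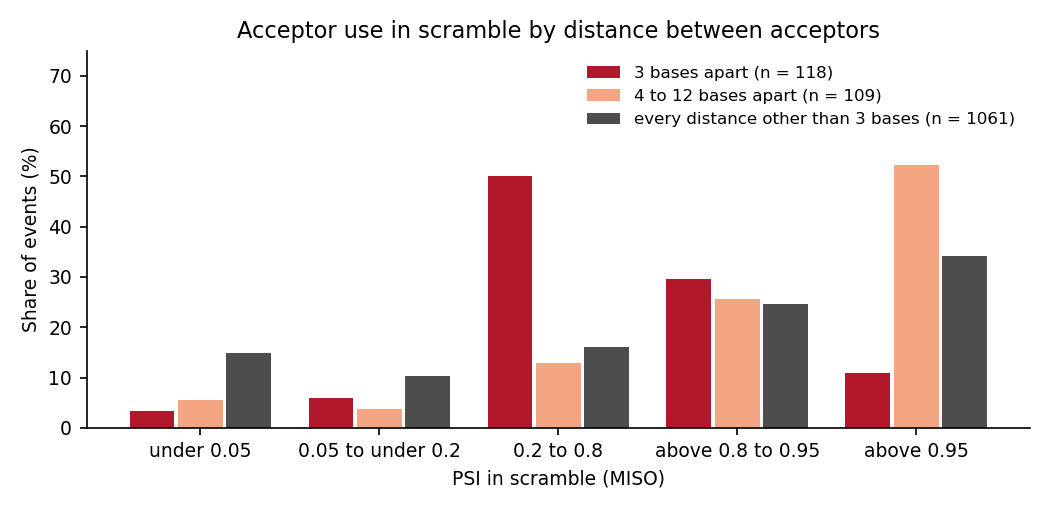
Share of events (%) in 5 classes of scramble PSI by MISO, for alternative 3' splice sites whose acceptors are 3 bases apart, 4 to 12 bases apart, or at every distance other than 3 bases (which includes the second set). Events with PSI from 0.2 to 0.8 made up 50% of the pairs 3 bases apart and 12.8% of the pairs 4 to 12 bases apart.

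Among the 110 members whose 3 bases were read, the PSI differed with the first of them. The bases could be read only where the longer form is annotated. Members with only the shorter form annotated, at 0.01 to 0.18 in scramble, are therefore left out of this split. Those with neither form found, at 0.74 to 0.98, are left out too. With G as the first base, all 5 members had a scramble PSI of 0.94 to 0.98, with a median of 0.97. With A the median was 0.91, and the 19 members ran from 0.3 to 0.99. With C it was 0.7, from 0.03 to 0.99, and with T 0.705, from 0.03 to 0.94. The same order of G, then A, then C and T was seen in every knockdown column: medians were 0.95 to 0.98 for G, 0.89 to 0.93 for A, 0.655 to 0.705 for C and 0.685 to 0.72 for T. The 7 columns share their events, so the columns are not independent repeats of this order. Nor was the order particular to the members. For acceptors 13 or more bases apart, split by the base before the distal AG, scramble medians were 0.97 (G), 0.95 (A), 0.88 (C) and 0.83 (T). For those 4 to 12 bases apart they were close together, at 0.97 (A), 0.955 (C) and 0.96 (T). The G members of the sequences above, CHD4 (a chromatin remodelling ATPase) and LEMD2 (an inner nuclear membrane protein), stood at 0.95 and 0.98 in scramble.

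**Figure D2:**
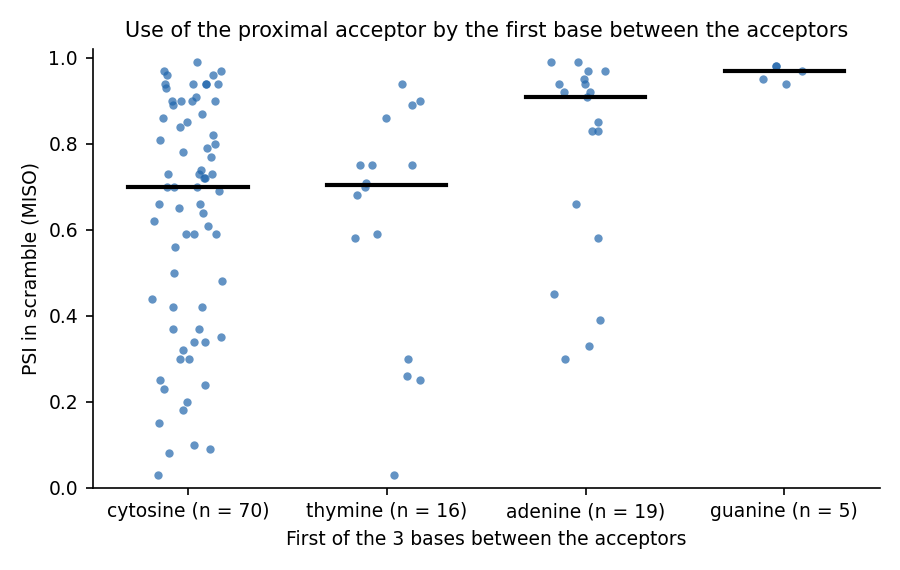
Scramble PSI by MISO of the 110 members matched to transcripts, by the first of the 3 bases between the acceptors; each point is 1 event and the line is the median. The 5 events with guanine sat between 0.94 and 0.98, while those with cytosine spread from 0.03 to 0.99.

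The exon lay in coding sequence at the acceptor in 94 of the 110 members, in the 5' UTR in 12, in the 3' UTR in 3 and in a noncoding transcript in 1. In 27 coding members the long form began on the first base of a codon, so that the 3 bases were a codon of their own. In the others they fell inside codons. None of the 14 coding members with TAG, a stop codon when in frame, began on a codon start, and none of 44 in the rMATS table did. The annotated reading frame that was used for this count cannot hold a stop codon, so this outcome was fixed by the annotation. Of the 806 rMATS members 703 were matched, 699 ended in AG, and 513 had CAG, 102 AAG, 65 TAG and 19 GAG.

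An event is called differing where PSI in a knockdown was at least 0.1 above or below scramble, a rule of size alone. By MISO, 11 members differed after PRMT1 knockdown (9.32%), 6 higher and 5 lower, against 7.4% of all 10358 events, 2.99% higher and 4.41% lower. After PRMT3 knockdown it was 17 (14.4%), 6 higher and 11 lower, against 10.5% of all events, 4.37% higher and 6.12% lower. For PRMT4, also known as CARM1, it was 13 (11%), 11 higher and 2 lower, against 7.47%, 3.23% higher and 4.24% lower. PRMT5 gave 11 (9.32%), 6 higher and 5 lower, against 8.27%, 4.57% higher and 3.71% lower. PRMT6 gave 19 (16.1%), 12 higher and 7 lower, against 6.84%, 2.5% higher and 4.33% lower. PRMT7 gave 17 (14.4%), 6 higher and 11 lower, against 6.34%, 2.54% higher and 3.8% lower. The members just inside the threshold differed by 0.1, or by 0.11 for PRMT3, and those just outside by 0.09. All 6 comparisons share the 1 scramble column, and PRMT6 itself rests on 1 library. Tandem events with a value, complete or not, numbered 199 in the PRMT6 column, 151 in scramble and 157 to 176 in the others, and the part of this in the PRMT6 count was not tested.

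The members' shares were above those of all events in each of these 6 comparisons. For PRMT5 (9.32% against 8.27%) and PRMT1 (9.32% against 7.4%) they were close to the share of all events. The order turned when events were set beside others that also used both forms. Among events with a scramble PSI of 0.2 to 0.8, 8 of 59 members (13.6%) differed after PRMT1 knockdown, against 28% of all 1658 such events. The members' counts were 12 (20.3%) for PRMT3 against 41.8%, 8 (13.6%) for PRMT4 against 28.6%, and 10 (16.9%) for PRMT5 against 33.5%. They were 12 (20.3%) for PRMT6 against 27.5% and 13 (22%) for PRMT7 against 24.8%. The other alternative 3' splice sites in this range stood at 27.1% to 37.6% for PRMT1, PRMT3, PRMT4, PRMT5 and PRMT6, above the members, but at 21.2% for PRMT7, beside 22% of the members. This range of scramble PSI was chosen after seeing the data. The width of PSI over the 7 columns behaved alike: its median was 0.095 in all members and 0.05 in all events. With a scramble PSI of 0.2 to 0.8 it was 0.12 in members and 0.18 in all events. In that range it was 0.1175 in the 14 pairs 4 to 12 bases apart, close to the members, though these pairs are few. It was 0.16 in the 170 acceptor pairs at every other distance, which include these 14. An event with a scramble PSI under 0.1 cannot be lower by 0.1, and one above 0.9 cannot be higher by 0.1.

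Of the 118 members, 42 (35.6%) differed in at least 1 knockdown, against 21.5% of all events, and 20 of these differed in 1 knockdown only. By the first of the 3 bases, it was 29 of 70 with C (41.4%), 7 of 19 with A (36.8%), 3 of 16 with T (18.8%) and 0 of 5 with G. The scramble PSI was above 0.8 in 13 of the 19 A members and all 5 G members, against 23 of 70 with C and 4 of 16 with T. The part of this in the shares called was not tested. The split of calls by direction differed between knockdowns, with more higher than lower for PRMT4 and PRMT6 and the reverse, 6 and 11, for PRMT3 and PRMT7. PRMT4 had 11 members higher, toward the proximal acceptor, and 2 lower, while the alternative 3' splice sites at other distances had 15 higher and 67 lower. At a threshold of 0.05 the PRMT4 split was gone, with 23 members higher and 21 lower, and 48 lay above 0 and 55 below. PRMT6 had 12 higher and 7 lower, beside 19 and 51 at other distances, and 26 and 18 members at 0.05. The median difference over the members was 0 in both, as it was over all events.

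**Figure D3:**
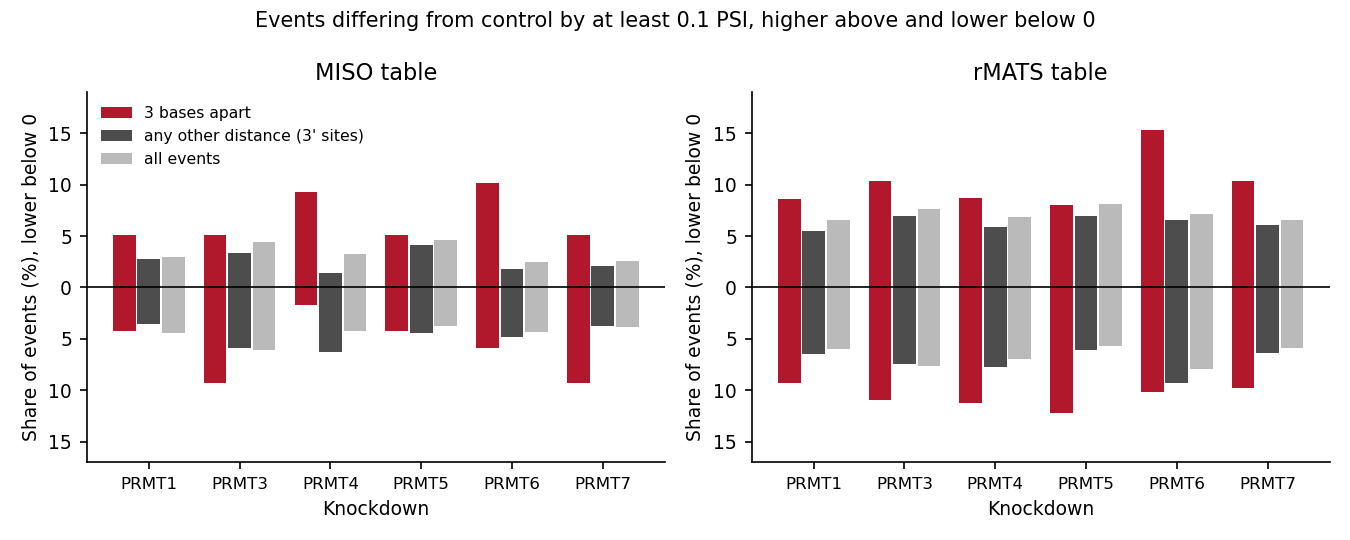
Share of events (%) whose PSI was at least 0.1 higher (above 0) or lower (below 0) than control in each knockdown, for members, for alternative 3' splice sites at any other distance and for all events, in the MISO table (left) and in the authors' deposited table of rMATS differences (right). In PRMT6 the members' upward share was 10.2% by MISO and 15.3% in the deposited rMATS table, beside 2.5% and 7.16% of all events.

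Among genes for RNA-binding and splicing proteins, 12 events were members, with a median scramble PSI of 0.63, and 3 (25%) differed in at least 1 knockdown, beside 21.5% of all events and 35.6% of all members. The 3, all higher, were ATXN2L, PTBP2 and CLK2. Events of any kind in these genes numbered 486 by MISO and went both ways. By at least 0.1, 12 were higher and 18 lower in PRMT1, and 29 and 23 in PRMT3. It was 9 and 15 in PRMT4, 26 and 18 in PRMT5, 9 and 25 in PRMT6, and 19 and 4 in PRMT7. Of all events, 6.34% (PRMT7) to 10.5% (PRMT3) differed in either direction. ATXN2L encodes a relative of ataxin-2 found in stress granules. The PSI of its event was 0.1 in scramble, 0.25 (PRMT1), 0.31 (PRMT3), 0.22 (PRMT4), 0.21 (PRMT5), 0.26 (PRMT6) and 0.24 (PRMT7). All 6 knockdown values lay above scramble by more than 0.1, and this was the only member that differed in the same direction in all 6 knockdowns; 58 of all 10358 events did so. Against the mean of the 5 remaining knockdowns, without scramble, its PRMT7 value was at -0.01. PTBP2, the neuronal relative of the splicing repressor PTBP1, stood at 0.39 in scramble and 0.4 (PRMT3), but at 0.51 (PRMT1), 0.53 (PRMT4), 0.51 (PRMT5), 0.53 (PRMT6) and 0.66 (PRMT7). It was thus higher by at least 0.1 in 5 knockdowns. Against the remaining knockdowns it was at -0.016 in PRMT1 and in PRMT5. CLK2, a kinase that phosphorylates SR proteins, was at 0.66 in scramble, 0.79 in PRMT6 and 0.6 to 0.74 in the others.

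CNOT1, the scaffold of the CCR4-NOT deadenylase, went from 0.86 in scramble to 0.95 in PRMT6 and stayed under the threshold, with the other knockdowns at 0.85 to 0.91. HNRNPC, which binds uridine tracts and competes with U2AF, was the only MISO member among the genes for recognition of the 3' splice site. Its TAG event lay from 0.9 to 0.97 in the 7 columns and did not reach the threshold.

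Genes for chromatin and transcription also held 12 members, with a median scramble PSI of 0.84. In at least 1 knockdown 3 of them (25%) differed, beside 21.5% of all events and 35.6% of all members; the 3, all lower, were CHD9, BRPF1 and DAXX. SMARCA4 and CECR2, chromatin genes outside that list, had higher values and are given further on. CHD9, a chromodomain helicase, was at 0.79 in scramble and 0.8 (PRMT6), against 0.61 (PRMT1), 0.62 (PRMT3), 0.65 (PRMT4), 0.53 (PRMT5) and 0.62 (PRMT7). It was lower by at least 0.1 in 5 knockdowns. Set against the remaining knockdowns, CHD9 was at 0.014 in PRMT4. BRPF1, the scaffold of the MOZ and MORF acetyltransferase complexes, was at 0.48 in scramble, 0.4 (PRMT1), 0.46 (PRMT3), 0.4 (PRMT4), 0.31 (PRMT5), 0.34 (PRMT6) and 0.37 (PRMT7). All 6 knockdowns lay below scramble, and PRMT5, PRMT6 and PRMT7 by at least 0.1. DAXX, a chaperone of histone H3.3, was at 0.65 in scramble and 0.55 in PRMT6, and at 0.64 to 0.7 in the others; its acceptors lie in the 5' UTR. HCFC1, a transcriptional coregulator, used the proximal acceptor little, at 0.09 in scramble, against 0.08 to 0.17 over the knockdowns.

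BAHD1, a protein of heterochromatin and gene silencing that was not on the list, had the largest lower difference of all members, in PRMT7. Its PSI was 0.83 in scramble, 0.75 (PRMT1), 0.58 (PRMT3), 0.68 (PRMT4), 0.8 (PRMT5), 0.78 (PRMT6) and 0.55 (PRMT7). CIC, a transcriptional repressor, was at 0.73 in scramble, 0.67 (PRMT1), 0.7 (PRMT3), 0.64 (PRMT4), 0.63 (PRMT5), 0.59 (PRMT6) and 0.58 (PRMT7), below scramble in all 6 and by at least 0.1 in 3. TCFL5, a helix-loop-helix factor, was lower by at least 0.1 in PRMT6 and PRMT7, at 0.71 in both against 0.83. CRTC3, a coactivator of CREB, was higher in PRMT5 (0.8) and PRMT7 (0.77) than in scramble (0.66).

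Of 15 genes named in the literature on tandem acceptors, SMARCA4 and FOXM1 gave 3 MISO members. SMARCA4, an ATPase of the SWI/SNF remodelling complexes, has a coding event at 0.59 in scramble, 0.63 (PRMT1), 0.65 (PRMT3), 0.59 (PRMT4), 0.72 (PRMT5), 0.76 (PRMT6) and 0.78 (PRMT7). No knockdown lay below scramble, and 3 lay above it by at least 0.1. A second SMARCA4 event, in the 5' UTR (chromosome 19, acceptors at 11094797 and 11094800), was at 0.72 in scramble and 0.6 in PRMT3, with the others at 0.65 to 0.74. FOXM1, a cell cycle transcription factor, was at 0.66 in scramble, 0.53 in PRMT3 and 0.57 to 0.63 in the others.

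The next members work at centrosomes, cilia or microtubules, a grouping made after their values were seen. STIL, needed for centriole duplication, was at 0.42 in scramble, 0.26 (PRMT1), 0.28 (PRMT3), 0.38 (PRMT4), 0.39 (PRMT5), 0.29 (PRMT6) and 0.37 (PRMT7). FBF1, a protein of the ciliary transition fibres, was higher in all 6, at 0.46, 0.43, 0.44, 0.36, 0.4 and 0.37 for PRMT1, PRMT3, PRMT4, PRMT5, PRMT6 and PRMT7 against 0.3 in scramble. MAP9, a microtubule-associated protein, went both ways from 0.42 in scramble, to 0.53 in PRMT1 and 0.28 in PRMT7. WDR47, a WD-repeat protein of neuronal microtubules, was lower in all 6, with 0.33 in scramble, 0.13 (PRMT1), 0.21 (PRMT3), 0.3 (PRMT4), 0.24 (PRMT5), 0.22 (PRMT6) and 0.14 (PRMT7). CDC27, a subunit of the anaphase-promoting complex and 1 of 2 members among the genes for DNA repair and the cell cycle, was at 0.45 in scramble and 0.34 in PRMT5. The other, RAD54L, a helicase of homologous recombination, lay from 0.92 to 0.98 and did not reach the threshold.

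The list of cytoskeleton, traffic and membrane genes held 3 members. ANK3, the membrane adaptor ankyrin-G, was at 0.81 in scramble and 0.93 in PRMT6. DNM2, the GTPase dynamin 2, stayed from 0.71 to 0.8, and DYNC1I2, a dynein chain, from 0.89 to 0.97, and neither reached the threshold. EIF4G1, a scaffold of translation initiation and the only member among translation genes, lay between 0.34 and 0.4 in all 7 columns. No gene for an arginine methyltransferase held a member.

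Outside these lists, ZNF747, a zinc finger gene, had the widest range of all members. It was at 0.37 in scramble, 0.31 (PRMT1), 0.18 (PRMT3), 0.51 (PRMT4), 0.27 (PRMT5), 0.31 (PRMT6) and 0.28 (PRMT7). C11orf68 followed, at 0.3 in scramble, 0.34 (PRMT1), 0.14 (PRMT3), 0.45 (PRMT4), 0.24 (PRMT5), 0.35 (PRMT6) and 0.35 (PRMT7). In both genes PRMT4 was the highest column and PRMT3 the lowest. SMPD1, the acid sphingomyelinase, was at 0.85 in scramble and 0.88 in PRMT5, and at 0.94 to 0.98 in the other 5 knockdowns, 4 of them higher by at least 0.1. STK38, a kinase of the NDR family with the acceptors in its 5' UTR, was higher by at least 0.1 in 3 knockdowns, at 0.91 in PRMT3, 0.88 in PRMT4 and 0.89 in PRMT6 against 0.77 in scramble, and lay at 0.76 to 0.85 in the others.

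ANKRD17, an ankyrin-repeat protein, was at 0.72 in scramble, and at 0.83, 0.85 and 0.82 in PRMT1, PRMT3 and PRMT6. PKP4, a plakophilin of cell junctions, was at 0.75 in scramble and 0.58 in PRMT7. GPANK1, whose scramble PSI was 0.5, went to 0.37 in PRMT7. The event with the symbols SRGAP2D and SRGAP2, near-identical copies whose reads may be split or shared, was at 0.74 in scramble, 0.62 in PRMT1 and 0.61 in PRMT3, and is uncertain for that reason.

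**Figure D4:**
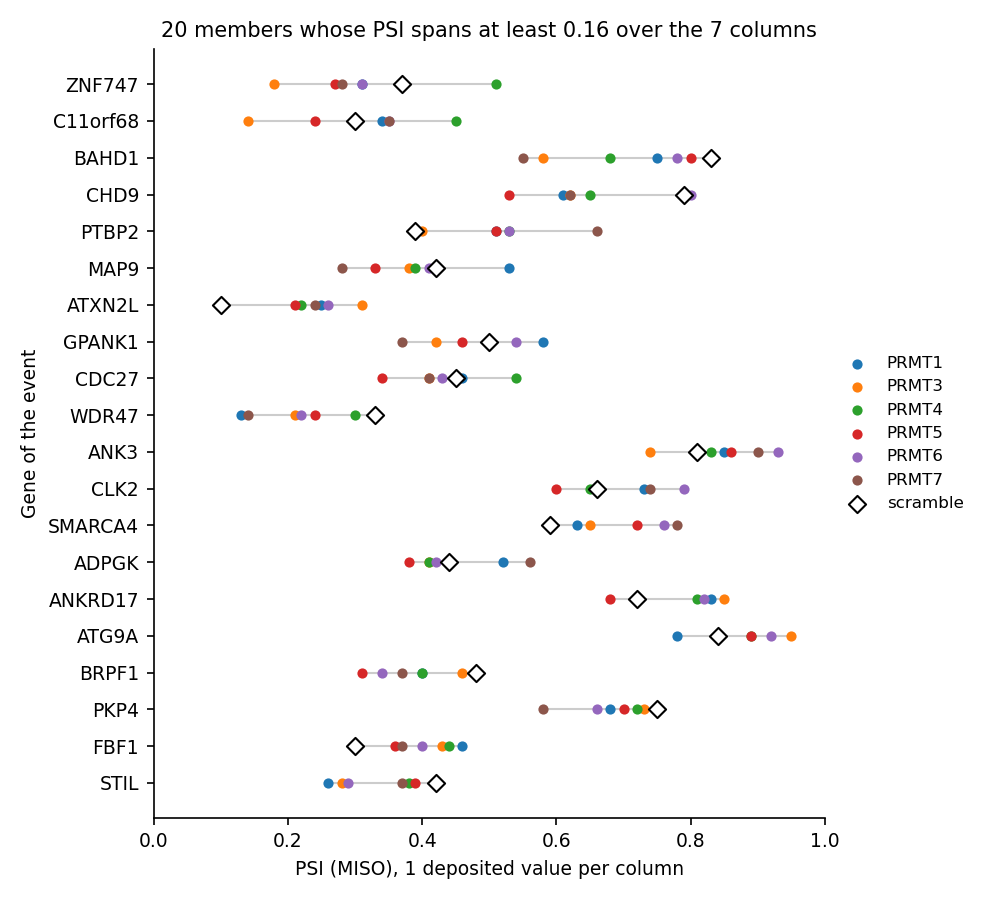
PSI by MISO in scramble (diamond) and in each knockdown (coloured points) for 20 of the 21 members whose PSI spanned at least 0.16 over the 7 columns; equal values cover each other. Scramble was the lowest column in ATXN2L, PTBP2 and FBF1, and the highest in BAHD1, BRPF1, PKP4, WDR47 and STIL.

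At the other end, 19 members spanned less than 0.05 over the 7 columns. These include the GAG event of LEMD2, which lay from 0.97 to 0.99, and others near 0 or 1, such as SMG1 at 0.01 to 0.02.

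The second table gives differences only and does not state their sign. They were read as control minus knockdown, from the match with the MISO values, and turned here to knockdown minus control. Every direction taken from this table rests on that reading. After PRMT1 knockdown 144 of the 806 members in the authors' deposited table differed by at least 0.1 (17.9%), 69 higher and 75 lower, against 12.5% of all 60623 events, 6.59% higher and 5.94% lower. PRMT3 had 171 in the authors' deposited table (21.2%), 83 higher and 88 lower, against 15.3%, 7.64% higher and 7.68% lower. PRMT4 had 160 in the authors' deposited table (19.9%), 70 higher and 90 lower, against 13.8%, 6.84% higher and 6.91% lower. PRMT5 had 163 in the authors' deposited table (20.2%), 65 higher and 98 lower, against 13.8%, 8.16% higher and 5.66% lower. PRMT6 had the most in the authors' deposited table, 205 (25.4%), 123 higher and 82 lower, against 15.1%, 7.16% higher and 7.9% lower. PRMT7 had 162 in the authors' deposited table (20.1%), 83 higher and 79 lower, against 12.4%, 6.57% higher and 5.85% lower.

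The members' shares were again above those of all events. Among the 55 members also held by MISO they were below them, with 1 or 2 events called per knockdown in the authors' deposited table. Starting PSI is not in the authors' deposited table, so the comparison at a like PSI could not be repeated there. Between 54.6% (PRMT6) and 61.9% (PRMT7) of the members lay within 0.05 of 0 in the authors' deposited table. PRMT6 and PRMT7 had more members higher than lower at 0.1 and the other 4 knockdowns fewer in the authors' deposited table. In PRMT6 the alternative 3' splice sites at other distances had 319 higher and 452 lower in the authors' deposited table. With 1 event per acceptor pair, 730 pairs, PRMT6 kept that direction with 98 higher and 69 lower, and PRMT7 turned to 63 higher and 69 lower, in the authors' deposited table. At 0.05, PRMT6 had 220 higher and 146 lower, and PRMT1 turned to 170 higher and 141 lower, in the authors' deposited table. PRMT4, uneven toward higher values by MISO, had 70 higher and 90 lower in the authors' deposited table.

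The size of the differences also varied with the first of the 3 bases, in an order that was not that of the MISO calls, where A members were called more often than T members. The median absolute difference over all targets was 0.037 with C, 0.027 with T, 0.02 with A and 0.008 with G in the authors' deposited table. A difference of 0.1 in any knockdown was listed for 39.6% of the 513 CAG members, 32.3% of the 65 TAG members, 23.5% of the 102 AAG members and 1 of 19 GAG members in the authors' deposited table. Over all 806 it was 313 (38.8%), and over all events 25.9%, in the authors' deposited table.

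The same 2 acceptors can be reached from different donors, and rMATS lists these as separate events: 69 acceptor pairs were in 145 of the 806 events. Between the events of such a pair, the authors' deposited table differed by at least 0.1 in 37 (PRMT7) to 45 (PRMT5) of the 69 pairs. The median gap was 0.124 to 0.152 PSI in the authors' deposited table. NCOR1, a corepressor of nuclear receptors, was at 1 in all 6 knockdowns in the authors' deposited table for acceptors at 15969008 and 15969005 on chromosome 17 joined to the donor at 15973479. Joined to the donor at 15971208, the same acceptors lay between -0.022 and 0.021 in the authors' deposited table. FOXM1 acceptors at 2973921 and 2973918 on chromosome 12, a pair other than that in the MISO table, were at -0.151 to -0.053 from the donor at 2974051 and at 0.019 to 0.094 from the donor at 2974521 in the authors' deposited table. The SMARCA4 acceptors in the 5' UTR were at -0.877 (PRMT6) to -0.217 (PRMT4) in the authors' deposited table, from a donor at 11091528. From the donor at 11071850 the same acceptors differed from scramble by -0.12 (PRMT3) to 0.02 (PRMT6) by MISO, with PSI from 0.6 to 0.74.

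The remaining largest values sat at or near the ends of the scale. DIS3L2, an exoribonuclease, was at 1 in PRMT1, PRMT5, PRMT6 and PRMT7, and at 0.748 and 0.495 in PRMT3 and PRMT4, in the authors' deposited table. SMAD6, an inhibitor of BMP signalling, was at -1 in 5 knockdowns and -0.5 in PRMT7 in the authors' deposited table. DOK4, an adaptor protein, was at 0.664 to 0.89 over the 6 knockdowns, and AJ271736.10 at -1 to -0.5, in the authors' deposited table. RASSF8-AS1 (donor at 26112259) was at -1 in PRMT1 and PRMT6 and at -0.538 to -0.5 in the other knockdowns in the authors' deposited table. PRKAG2 (donor at 151372506) was at 0.495 to 1, RABL2B (donor at 51215098) at -1 to -0.028 and PTPRG-AS1 (donor at 62304327) at -0.836 to -0.217 in the authors' deposited table. The last 4 each had a second event with the same acceptors and another donor, at -0.147 to 0.205 in the authors' deposited table. Read numbers behind these values are unknown, and between 3 and 6 members per target were at exactly 1 or -1 in the authors' deposited table.

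Among the genes for recognition of the 3' splice site, 7 events were members in the authors' deposited table. Those of SF3B2 (3 events), RBM17 and HNRNPC stayed within 0.036 of 0 in the authors' deposited table. U2AF1L4, a relative of the small U2AF subunit, had a TAG pair in its 3' UTR at -0.021 (PRMT1), -0.375 (PRMT3), -0.273 (PRMT4), -0.059 (PRMT5), 0.338 (PRMT6) and -0.662 (PRMT7) in the authors' deposited table. PUF60, a partner of U2AF at weak pyrimidine tracts, had an event of a noncoding transcript at -0.132 to 0.254 in the authors' deposited table. Events of any kind in this list of 35 genes numbered 68 by MISO, over 16 genes. Of these, 1 was higher and 2 lower by at least 0.1 after PRMT1 knockdown, and 4 and 4 after PRMT3. It was 1 and 4 after PRMT4, 4 and 0 after PRMT5, 0 and 3 after PRMT6, and 3 and 1 after PRMT7. In the same order, 7.4%, 10.5%, 7.47%, 8.27%, 6.84% and 6.34% of all MISO events differed in either direction. The widest of the 68 was another alternative 3' splice site of HNRNPC, at 0.61 in scramble and 0.92 in PRMT5. One of SF1 followed, at 0.94 in scramble and 0.64 in PRMT3.

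For the 55 events held by both tables, calls and sizes can be set side by side; both tables come from the same libraries, so this compares ways of processing. By MISO 22 of the 55 differed in at least 1 knockdown, beside 21.5% of all events and 35.6% of all 118 members. Of the 55, 3 did in the authors' deposited table, beside 25.9% of all events and 38.8% of all 806 members. Per knockdown MISO called 7 to 13 of the 55, beside 6.34% to 10.5% of all events. It was 1 or 2 of the 55 in the authors' deposited table, beside 12.4% to 15.3% of all events. The median gap between MISO and the authors' deposited table was 0.021 to 0.041 PSI. Calls shared by both were 0 for PRMT1 and 1 for each of the other knockdowns, which is 7.69% to 14.3% of the MISO calls there and 50% to 100% of those from the authors' deposited table.

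The shared calls belong to BAHD1 and BRPF1. BAHD1 was lower by 0.25 in PRMT3, 0.15 in PRMT4 and 0.28 in PRMT7 by MISO, and at -0.234, -0.181 and -0.244 in the authors' deposited table. PRMT1, PRMT5 and PRMT6 gave BAHD1 differences of -0.153, -0.075 and -0.074 in the authors' deposited table, so that it lay below control in all 6. BRPF1 was lower by 0.17 in PRMT5 and 0.14 in PRMT6 by MISO, and at -0.124 in both in the authors' deposited table. In PRMT1, PRMT3, PRMT4 and PRMT7 BRPF1 lay at -0.078, -0.023, -0.067 and -0.084 in the authors' deposited table.

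Other members with wide MISO ranges were close to 0 in the second table. ATXN2L, higher in all 6 knockdowns by MISO, was at 0.021, 0.02, 0.015, 0.011, 0.036 and -0.018 for PRMT1, PRMT3, PRMT4, PRMT5, PRMT6 and PRMT7 in the authors' deposited table. PTBP2 lay at -0.034 to 0.049, WDR47 at -0.03 to 0.017, the coding SMARCA4 event at -0.034 to 0.016 and STIL at -0.018 to 0.057 in the authors' deposited table. CHD9 lay between, at -0.09 (PRMT1), -0.041 (PRMT4), -0.079 (PRMT5) and -0.059 (PRMT7), but at 0.017 (PRMT3) and 0.074 (PRMT6), in the authors' deposited table. FBF1 was at 0.085, 0.051 and 0.045 in PRMT1, PRMT3 and PRMT4, and at -0.009 to 0.018 in the other knockdowns, in the authors' deposited table. Which of both values is nearer to the use of the acceptors in the cells cannot be told from the tables, which hold no read numbers.

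**Figure D5:**
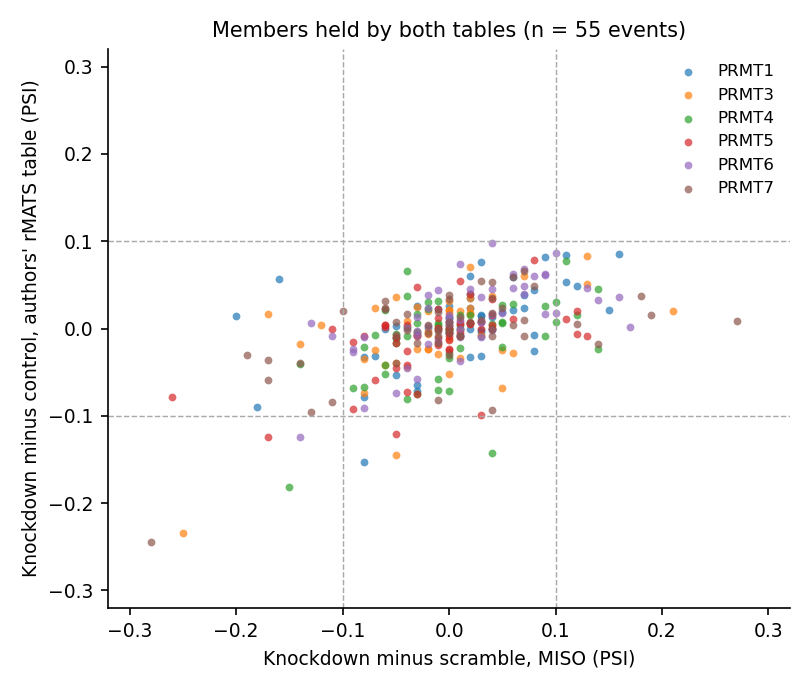
Difference in PSI from scramble by MISO (x axis) against the difference in the authors' deposited table of rMATS values with the sign turned (y axis), for the 55 events held by both and 6 knockdowns; dashed lines mark 0.1 above and below 0. The points past both lines are those of BAHD1 in PRMT3, PRMT4 and PRMT7 and of BRPF1 in PRMT5 and PRMT6, and many points past 0.1 by MISO lie near 0 on the y axis.

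Small differences on 1 side of 0 in all 6 knockdowns of both tables were seen for 6 of the 55 members, BAHD1 and BRPF1 among them; the other four were picked out after their values were seen. CECR2, a bromodomain protein of chromatin remodelling, was at 0.87 in scramble, against 0.91 to 0.98 over the knockdowns by MISO, and at 0.045 to 0.082 in the authors' deposited table. SCAP, the sterol-sensing escort of SREBP, was at 0.18 in scramble, against 0.1 to 0.15 over the knockdowns by MISO, and at -0.081 to -0.039 in the authors' deposited table. PKP4 was lower by both, by 0.004 to 0.045 in the authors' deposited table. CEP85, a centrosomal protein, was higher by both, at 0.23 in scramble, against 0.25 to 0.33 over the knockdowns by MISO, and at 0.008 to 0.076 in the authors' deposited table. All 6 knockdowns share the scramble library, so the 6 columns are not independent.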

How the data were processed

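Stranded poly(A) libraries were made from HEK293T cells with stable hairpins, per the labels' protocols. The submitters' processing notes name cutadapt 1.18, HISAT and GRCh37. Settings of MISO and rMATS, and the step from 2 hairpins to 1 column per target, are not given here. The MISO values were deposited by the authors as PSI, a fraction from 0 to 1, and the rMATS values as the authors' differences in PSI, with no p-value or read numbers, so depth and precision are unknown and no interval is given.

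Members were all alternative 3' splice site events with acceptors 3 bases apart and a value in every column. Calls were made on whole tables at 0.1 PSI, by size alone, since 1 column per target allows no test. The sign of the rMATS values is not stated and was read as control minus knockdown, from the match with the MISO values. After turning it, 31 to 38 of 45 to 50 nonzero differences of the matched members have the same sign. That count is therefore no separate support for the reading. PSI is taken as use of the proximal acceptor, by the programs' convention. Sequences are from GENCODE 29 transcripts (GRCh38), matched by symbol, chromosome, strand and intron length; no coordinates were converted, and bases inside the intron were not used here. The calling step was tested on simulated data.

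Named were, per target, the 4 largest higher and 4 largest lower MISO events past 0.1 (1 per gene), events past 0.1 one way in all 6 knockdowns, the 8 widest ranges, the 3 with scramble PSI nearest 0.5, up to 4 members of each of 8 gene lists, all members among 15 genes of the tandem acceptor literature, the 2 largest rMATS values per target and direction, and events called in both tables. Members, lists and rules were chosen with earlier results of these data known. Alternatives were other thresholds, a logit scale, another reference, other filters on missing values and distance, only events with scramble PSI of 0.2 to 0.8, and 1 event per acceptor pair; the last 2 were chosen after seeing the data. Of the MISO table, 1 emptied line was left out, and some genes the rule names are not reported here. Software was Python 3.11.15 with pandas 2.3.3, numpy 2.4.6, matplotlib 3.10.9 and scipy 1.17.1.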

Additional observations from a re-analysis of the deposited data

Results flagged for a closer look

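In 3 genes the event differed from scramble by at least 0.1 in opposite directions in different knockdowns by MISO, with 1 shared scramble value; whether the effect differs between targets was not tested. C11orf68 was at -0.16 in PRMT3 and 0.15 in PRMT4. ZNF747 was at -0.19 in PRMT3, -0.1 in PRMT5 and 0.14 in PRMT4. MAP9 was at 0.11 in PRMT1 and -0.14 in PRMT7, and in the authors' deposited table of rMATS differences it was at 0.053 and -0.039.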

How the results depend on the processing

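Counts of members called depended on the threshold. In the order PRMT1, PRMT3, PRMT4, PRMT5, PRMT6 and PRMT7, the MISO counts of 11, 17, 13, 11, 19 and 17 became 1, 2, 0, 1, 0 and 2 at 0.2, and 46, 42, 44, 46, 44 and 40 at 0.05. On a logit scale (a change of at least 0.5) they were 25, 35, 33, 26, 34 and 29. Against the mean of the 5 remaining knockdowns, in place of scramble, they were 3, 5, 6, 6, 5 and 10. That reference uses no scramble library, and of 46 named differences 29 then stayed on their side of 0 but under 0.1. In 4 the sign turned: PTBP2 in PRMT1 (-0.016) and in PRMT5 (-0.016), CHD9 in PRMT4 (0.014) and ATXN2L in PRMT7 (-0.01). Members with a PSI in scramble and PRMT6, whether or not in other columns, gave 30 calls of 147 for PRMT6. Only members with scramble PSI of 0.2 to 0.8, a choice added after seeing the data, gave 8 for PRMT4 and 12 for PRMT6. By MISO at 0.05, 8.42% to 12% of all events were higher and 9.85% to 13.9% lower. Members stood at 9.32% to 22% and 15.3% to 26.3%, below all events only for PRMT3 higher (9.32% against 11.1%). For 0.2, the logit scale, the other reference and the 147 members, no share of all events is at hand. Members cannot be set beside all events there. The rMATS counts in the authors' deposited table, 144, 171, 160, 163, 205 and 162, became 75, 74, 65, 69, 83 and 75 at 0.2 and 311, 323, 316, 326, 366 and 307 at 0.05. With pairs 3 to 12 bases apart, 1419 events, the authors' deposited table gave 236, 276, 243, 259, 319 and 258. Events with a value in that target only gave 221 for PRMT1 and 245 for PRMT7, and the 55 events also in MISO gave 1, 2, 2, 2, 1 and 1, in the authors' deposited table. The cause of these shifts was not tested beyond the change in threshold or in the events counted.

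No paired analysis was possible because the tables hold 1 column per target, so the replicate block and leaving out a library were not run. Missing read numbers limit every value: a PSI from few reads cannot be told from one from many.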
